A study of Mus musculus with 6 samples.

Results

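The 10 basement membrane genes described here encode both chains of vascular collagen IV (Col4a1 and Col4a2), 5 laminin chains (Lama4, Lama5, Lamb1, Lamb2 and Lamc1), both nidogens (Nid1 and Nid2) and perlecan (Hspg2). They were chosen by name, and all 10 were found in the deposited table of 45038 genes. Each is given across 6 RNA sequencing libraries of cells sorted from C57BL/6 mouse hearts. All mice carried Tie2-Cre, a recombinase whose promoter works in endothelium and also in some blood cells, and Rosa-LSL-tdTomato, a red reporter that Cre switches on. Cells positive for tdTomato and negative for F4/80, a macrophage antigen, were collected. The 3 MI libraries came from infarcted tissue 3 weeks after ligation of the left anterior descending coronary artery, in mice that were 6 to 8 weeks old according to the labels. The 3 Normal libraries came from left ventricle labelled as without surgery. Libraries are named by group and by the number in their title, and the labels do not say what samples with the same number share or whether animals were pooled, so the p-values cover only how these 6 libraries vary, which may be technical.

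Basement membranes are thin sheets of matrix on which endothelial cells sit. Laminins, each made of an alpha, a beta and a gamma chain, assemble into a network at the cell surface, and collagen IV forms a second, covalently crosslinked network. Nidogens and the heparan sulphate proteoglycan perlecan connect the networks. In blood vessels the alpha chains of Lama4 and Lama5 define the main endothelial laminins, and the collagen IV of Col4a1 and Col4a2 is found in nearly all basement membranes.

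Col4a1 and Col4a2 lie head to head and are known to share a promoter, so their promoter windows are shown before their values. In the GENCODE annotation of GRCm38, Col4a1 is on the minus strand of chromosome 8 from 11198423 to 11312826, and Col4a2 is on the plus strand from 11312805 to 11449287. The start bases are 22 positions apart counted inclusively, and the first exons overlap by those 22 bases on opposite strands. RefSeq promoter sequences on GRCm38.p6, which run from 250 bases before to 50 bases after a gene's start, were matched for 7 of the 10 genes. The windows of the collagen pair are chr8:11312777-11313076 on the minus strand and chr8:11312555-11312854 on the plus strand. Capitals mark the 78 bases that both windows hold, read on opposite strands.
Col4a1: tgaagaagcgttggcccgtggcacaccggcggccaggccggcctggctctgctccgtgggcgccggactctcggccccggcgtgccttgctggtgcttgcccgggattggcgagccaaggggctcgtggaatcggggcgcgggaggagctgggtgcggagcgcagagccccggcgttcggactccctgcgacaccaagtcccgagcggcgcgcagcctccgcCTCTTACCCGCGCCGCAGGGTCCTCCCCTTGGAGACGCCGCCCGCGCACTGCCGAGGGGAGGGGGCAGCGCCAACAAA
Col4a2: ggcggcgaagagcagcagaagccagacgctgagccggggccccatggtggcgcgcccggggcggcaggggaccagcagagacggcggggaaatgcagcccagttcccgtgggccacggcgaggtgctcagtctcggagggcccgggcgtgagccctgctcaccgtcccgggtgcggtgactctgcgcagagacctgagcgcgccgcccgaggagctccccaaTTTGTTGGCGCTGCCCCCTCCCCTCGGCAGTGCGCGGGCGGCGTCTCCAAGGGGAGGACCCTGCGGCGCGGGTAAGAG
Searched on both strands, the GC box letters GGGCGG occurred 1 time in the Col4a1 window and 3 times in the Col4a2 window, with 1 match in the shared stretch, and at least 1 match was present in 35.7% of the 32851 promoters in the table. The letters CCAAT occurred 1 time in each window, before the shared stretch in Col4a1 and across its first base in Col4a2, and were present in 37.4% of all promoters. The letters TATAAA occurred in neither window and were present in 13.6% of promoters. These matches describe the sequence only.

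Expression values were FPKM, fragments scaled by transcript length and library total. Implied depths, read from the steps of low values, were 33.8 to 47.6 M fragments (M for mega) per library. Normal Ms1608 stood apart: its log2(FPKM + 1) values correlated across genes with those of the other libraries at 0.74 to 0.80, against 0.88 to 0.94 among the other 5. The labelled cell type was checked with 10 endothelial markers, whose summed FPKM was 432, 1048 and 275 in MI Ms1535, Ms1537 and Ms1608, 1257 and 870.0 in Normal Ms1535 and Ms1537, and 37.3 in Normal Ms1608. None of the 10 was listed at 0, but in Normal Ms1608 Kdr, a VEGF receptor, stood at 0.486 FPKM, against 44.6 and 73.9 FPKM in the other Normal libraries. Pecam1, another of the 10, went the other way. It was highest in Normal Ms1608, at 28.3 FPKM against 7.20 to 23.7 FPKM in the other libraries, and made up most of the sum there. Each of the other markers was lowest in Normal Ms1608. The 8 leukocyte markers summed to 2487, 2798 and 2561 FPKM in MI, to 315 and 478 in Normal Ms1535 and Ms1537, and to 4458 in Normal Ms1608. Whether Normal Ms1608 was sorted or labelled as the others was not settled here, so Normal values that include it may not stand for the labelled cells. In such sorted bulk samples, fewer cells of a type and less RNA per cell cannot be told apart.

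**Figure D1:**
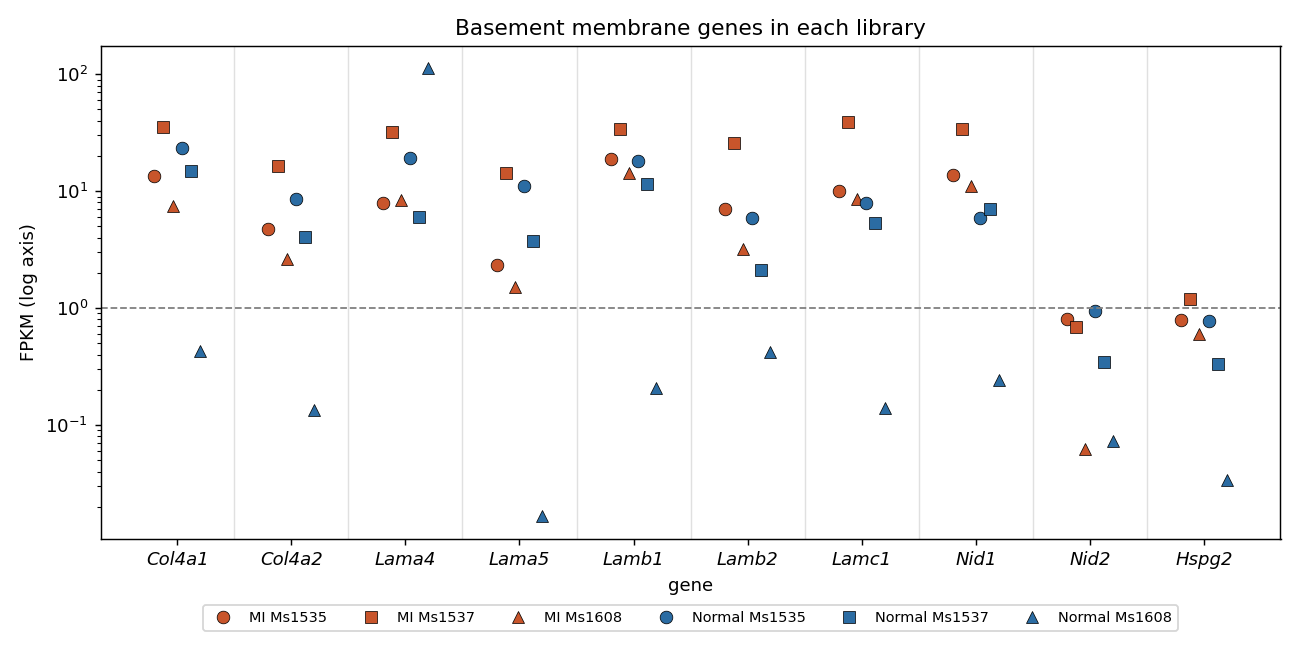
FPKM (log axis) of the 10 basement membrane genes, with 1 point per library, MI in orange and Normal in blue, and a dashed line at 1 FPKM. Normal Ms1608 is the highest point for Lama4, at 112 FPKM, and lies under 1 FPKM for the other 9 genes.

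Collagen IV transcripts overlapped between the groups. Col4a1, the more abundant chain, had 13.5, 35.2 and 7.46 FPKM after infarction (Ms1535, then Ms1537, then Ms1608) and 23.3, 15.0 and 0.429 FPKM without it, an order of libraries kept from here on. MI Ms1537 was highest and Normal Ms1608 lowest, and between them both other Normal libraries lay above both other MI libraries. Col4a2 followed at 4.76, 16.4 and 2.64 FPKM after infarction and 8.61, 4.09 and 0.136 FPKM without it. The order of the 6 libraries differed between both genes in 1 place, where MI Ms1535 lay below Normal Ms1537 for Col4a1 and above it for Col4a2. The ratio of Col4a1 to Col4a2 was 2.85, 2.15 and 2.83 in MI and 2.71, 3.67 and 3.17 in Normal. It therefore stayed between 2.15 and 3.67 while Col4a1 itself ranged from 0.429 to 35.2 FPKM. On log2 values with 1 FPKM added, the ratio differed by 0.10 between MI and Normal (exact two-sided permutation test, p = 1.0, where 0.1 is the smallest possible). That small difference turned to -0.13 with 0.1 FPKM added and to -0.29 without Normal Ms1608. In the last case the log2 ratios did not overlap between groups, by a small margin (exact permutation p = 0.2), whereas the plain ratios did.

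The alpha chains of laminin separated in Normal Ms1608. Lama4 (chromosome 10, 38965515 to 39110188, plus strand) encodes the alpha chain laid down early by endothelium, and stood at 7.86, 31.8 and 8.38 FPKM after infarction and 19.4, 6.01 and 112 FPKM without it. Its value in Normal Ms1608 was the highest of all 60 values of the 10 genes, above 93.2% of tested genes in that library, and corresponded to about 23978 fragments. Lama4 made up 98.5% of the summed FPKM of the 10 genes there, against 9.81% to 19.1% in the other 5 libraries. Lama5 (chromosome 2, 180176373 to 180225859, minus strand) encodes the alpha chain of the laminin that stabilises mature vessels. It was measured at 2.32, 14.4 and 1.53 FPKM after infarction and 11.0, 3.78 and 0.0166 FPKM without it, the last value being about 7 fragments. MI Ms1535 and Ms1608 lay below both Normal Ms1535 and Ms1537, and MI Ms1537 above all. The ratio of Lama4 to Lama5 was 3.38, 2.21 and 5.49 in MI, 1.76 and 1.59 in Normal Ms1535 and Ms1537, and 6773 in Normal Ms1608. With all 6 libraries the log2 ratio was 1.24 lower in MI, a difference of -1.24 that was smaller than the spread of the Normal libraries (SD 3.55, exact permutation p = 1.0). Without Normal Ms1608 it turned to 0.81 with no overlap between groups (exact permutation p = 0.2, the smallest that 3 against 2 libraries can give, 0.267 adjusted over the 4 ratios). This was not particular to the alpha chains. The log2 ratios of Col4a1 to Col4a2 and of Nid1 to Nid2 also had no overlap without that library, at the same p-values. The ratio of Lamb1 to Lamb2 overlapped.

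The beta and gamma chains were all lowest in Normal Ms1608 and highest in MI Ms1537. Lamb1 (chromosome 12, 31265234 to 31329644, plus strand), the widespread beta chain, stood at 19.0, 34.3 and 14.3 FPKM after infarction, against 18.0, 11.5 and 0.207 FPKM without it. MI Ms1608 lay between Normal Ms1537 and Ms1535, so the groups overlapped. Lamb2 (chromosome 9, 108479736 to 108490530, plus strand), the beta chain known from vessel walls, kidney filter and neuromuscular junction, was measured at 7.02, 25.8 and 3.19 FPKM against 5.85, 2.11 and 0.424 FPKM, again with overlap. The Lamb1 to Lamb2 ratio was 2.71, 1.33 and 4.50 in MI and 3.08, 5.47 and 0.488 in Normal, so that Normal Ms1608, with about 42 and 84 fragments, was the single library with more Lamb2 than Lamb1 transcript. The log2 ratio differed by 0.11 between groups (exact permutation p = 1.0), and by -0.55 without Normal Ms1608. Lamc1 (chromosome 1, 153218922 to 153332786, minus strand), the gamma chain of most laminins, was measured at 10.1, 38.8 and 8.56 FPKM after infarction and 7.88, 5.33 and 0.140 FPKM without it. The lowest MI value lay above the highest Normal value, by a small margin.

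Nidogens differed from each other in level. Nid1 (chromosome 13, 13437551 to 13512269, plus strand), which binds the laminin gamma chain and collagen IV, was measured at 13.8, 34.3 and 11.0 FPKM after infarction and 5.88, 6.99 and 0.245 FPKM without it. All MI libraries lay above all Normal libraries. Nid2 (chromosome 14, 19751265 to 19811787, plus strand), its partly redundant relative, stood at 0.810, 0.690 and 0.0629 FPKM after infarction and 0.939, 0.345 and 0.0736 FPKM without it, under 1 FPKM in every library. Its exons share 437 bases with Rtraf on the opposite strand, listed under an older symbol at 30.8 to 63.0 FPKM, and the strand setting of the counting was not given, so low Nid2 values are uncertain. The ratio of Nid1 to Nid2 was 17.1, 49.8 and 175 in MI against 6.26, 20.3 and 3.33 in Normal, with overlap. Adding 1 FPKM, which is more than any Nid2 value, makes the log2 ratio mostly follow Nid1. With 1 FPKM added the log2 ratio was 3.64 ± 0.69 in MI and 1.54 ± 1.20 in Normal (SD, n = 3 each), a difference of 2.10 with no overlap (exact permutation p = 0.1, 0.4 adjusted over the 4 ratios), which became 2.66 with overlap (p = 0.2) when 0.1 FPKM was added. Hspg2 (chromosome 4, 137468769 to 137570630, plus strand), the perlecan core protein, stood at 0.799, 1.18 and 0.606 FPKM after infarction and 0.775, 0.335 and 0.0341 FPKM without it, and MI Ms1608 lay below Normal Ms1535.

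**Figure D2:**
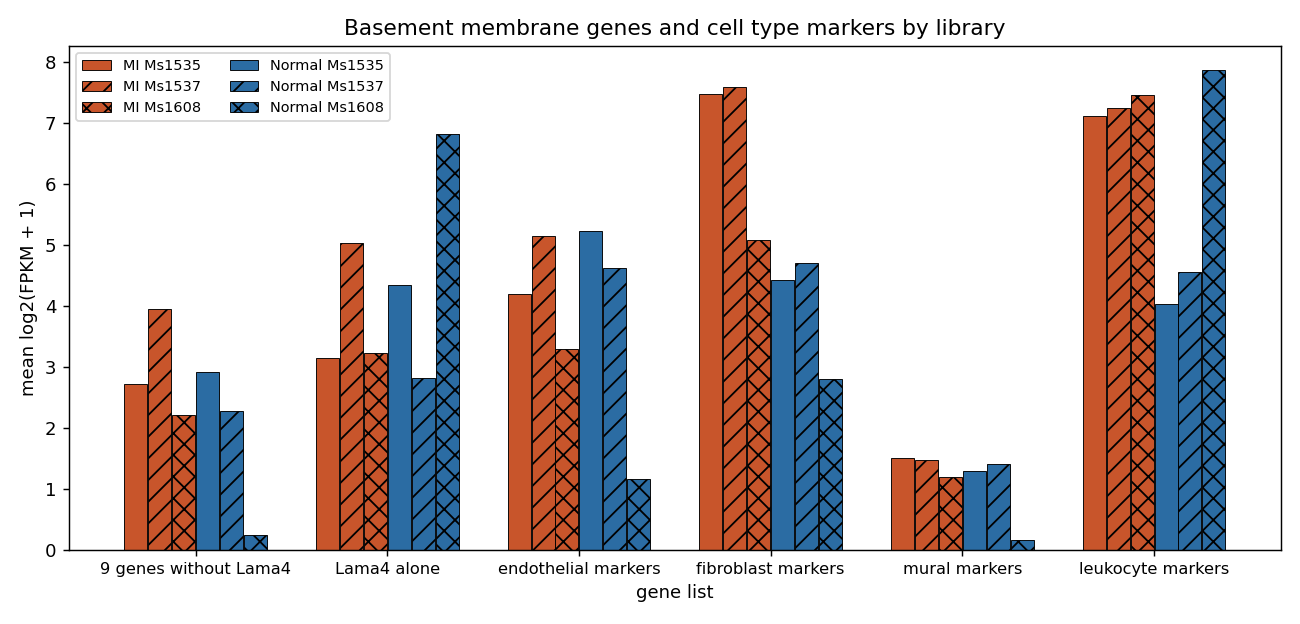
Mean log2(FPKM + 1) per library of the basement membrane genes without Lama4, of Lama4 alone, and of the marker lists of 4 cell types, with bars coloured by group and hatched by sample number. The means of the 9 genes and of the endothelial, fibroblast and mural markers are lowest in Normal Ms1608, where Lama4 and the mean of the leukocyte markers are highest.

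The 9 genes other than Lama4 were low in the library that was low in the endothelial markers other than Pecam1. Their mean log2(FPKM + 1) was 2.72, 3.94 and 2.21 in MI, 2.91 and 2.27 in Normal Ms1535 and Ms1537, and 0.24 in Normal Ms1608. Endothelial markers averaged 4.20, 5.15 and 3.29 in MI and 5.23, 4.62 and 1.16 in Normal on the same scale. The 9 fibroblast markers, genes of the interstitial matrix and of its cells, summed to 5644, 4902 and 972 FPKM in MI and to 703, 938 and 197 in the Normal libraries, with 0 of 9 listed at 0 in any library. Col1a2 and Col3a1 went the other way among the Normal libraries, at 20.9, 23.7 and 37.9 FPKM and at 22.6, 21.2 and 40.9 FPKM. Each of the other fibroblast markers was lowest in Normal Ms1608. The 10 mural cell markers, genes of pericytes and smooth muscle that also make basement membrane, summed to 25.9 to 33.5 FPKM in 5 libraries and to 1.21 FPKM in Normal Ms1608, and 1 of them, Myh11, was listed at 0 in Normal Ms1535. The 7 cardiomyocyte markers summed to 232, 147 and 1077 FPKM after infarction and 852, 469.8 and 9.14 FPKM without it, and the 5 macrophage markers to 745, 1135 and 2252 FPKM and 151, 220.0 and 2466 FPKM, with none at 0. Lyz2 made up most of the macrophage sum in every library, and stood at 2454 FPKM in Normal Ms1608, its highest library. Adgre1 and C1qa went the other way and were lowest there, at 0.00904 and 2.28 FPKM. Cd68 and Csf1r were neither highest nor lowest in that library. The part of these cell types in the levels of the basement membrane genes was not tested.

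MI was compared with Normal by limma on log2(FPKM + 1) across 10168 genes, those reaching 1 FPKM in 3 or more libraries. Of the 10 genes, 8 passed this filter, and Nid2 and Hspg2 did not. With all 6 libraries, 0 of the 8 passed the adjusted threshold of 0.05, and 1 gene of all tested did (0.00983%). At an unadjusted limma p under 0.05, 1 of the 8, Nid1, was higher in MI, beside 16.1% of all tested genes. The groups did not overlap, with MI higher, for 2 of the 8, Lamc1 and Nid1, beside 25.0% of all tested genes. A difference above 0 was measured for 7 of the 8, beside 87.2%. These counts moved with single libraries. Without Normal Ms1535, 4 of the 8 were higher at an unadjusted p under 0.05, beside 1653 of all 10168 tested genes, and without MI Ms1535 or MI Ms1537 it was 0, beside 857 and 847. Groups without overlap numbered 4 of 8 without Normal Ms1535, beside 3497 genes, and 4 of 8 without MI Ms1608, beside 4089.

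Among the differences with all 6 libraries, Nid1 had the largest, at 2.17 (SE 0.88, limma adjusted p = 0.281), followed by Lamc1 at 2.01 (SE 0.95, adjusted p = 0.316). Lamb1 had 1.75 (SE 1.03, adjusted p = 0.395) and Lamb2 1.63 (SE 0.89, adjusted p = 0.365). These 4 stood above the median tested gene, which itself lay 0.78 higher in MI. The collagens were close to that median, with 1.00 for Col4a1 (SE 1.09, adjusted p = 0.649) and 0.90 for Col4a2 (SE 0.94, adjusted p = 0.632). The alpha chains lay below it, with 0.38 for Lama5 (SE 1.02, adjusted p = 0.869) and -0.86 for Lama4 (SE 1.04, adjusted p = 0.689). Neighbours in this order lay closer to each other than their standard errors, except Lama5 and Lama4. The median over the 8 genes was 1.32, and rescaling lowered it to 0.43 (median-ratio), 0.58 (upper-quartile) or 0.11 (quantile), with the median tested gene at -0.03, 0.20 and -0.05.

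**Figure D3:**
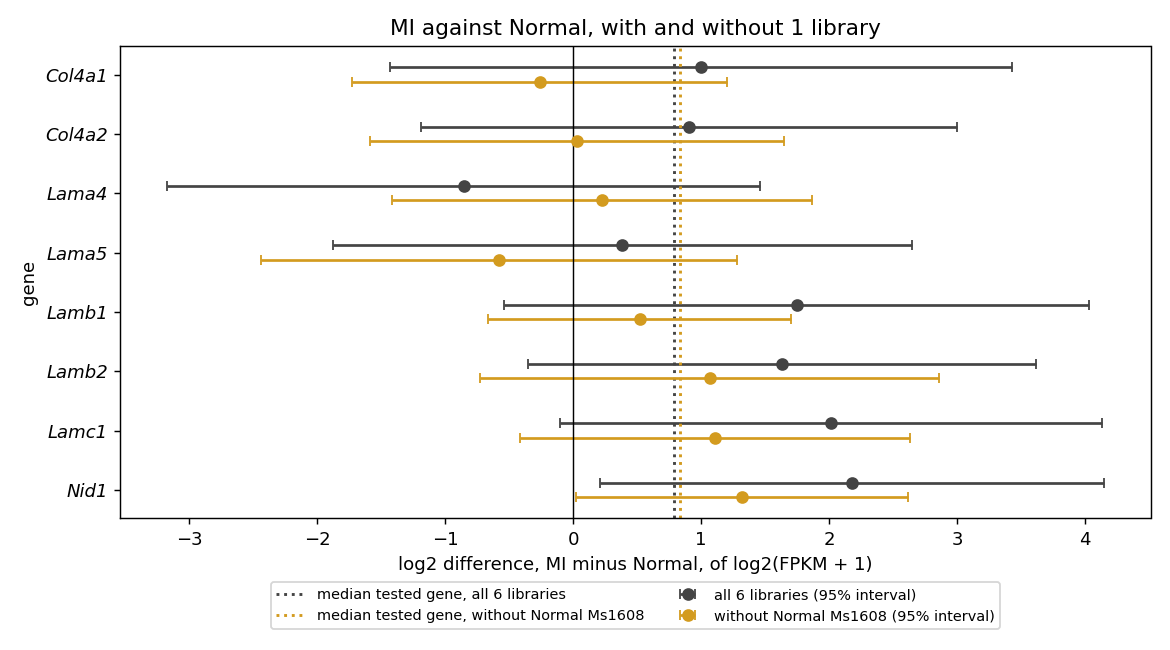
Log2 difference of log2(FPKM + 1), MI minus Normal, for the 8 tested genes with 95% limma intervals, from all 6 libraries (grey) and without Normal Ms1608 (yellow), and dotted lines at the median of all tested genes. Without that library every interval is narrower, Col4a1 moves from 1.00 to -0.26 and Lama4 from -0.86 to 0.23.

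Without Normal Ms1608 Nid1 and Lamc1 again came first and all 8 intervals were narrower. Nid1 stood at 1.32 (SE 0.57, limma adjusted p = 0.154), Lamc1 at 1.11 (SE 0.67, adjusted p = 0.267) and Lamb2 at 1.07 (SE 0.79, adjusted p = 0.349). Lamb1 stood at 0.52, Lama4 at 0.23, Col4a2 at 0.03, Col4a1 at -0.26 and Lama5 at -0.58, all below the median tested gene at 0.83. The 95% interval for Col4a1 ran from -1.73 to 1.20, so these libraries did not determine the sign of its difference. In this comparison 0 of the 8 genes passed the adjusted threshold, beside 4.51% of all tested genes. At an unadjusted p under 0.05, Nid1 was again the 1 gene higher in MI, beside 30.8%. Lamc1 and Nid1 did not overlap between groups, beside 52.6% of tested genes, and 6 of the 8 differences were above 0, beside 87.7%. With 8 genes these counts cannot be read as a trait of the basement membrane genes, and their distance from the shares of all tested genes was not tested.

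Because library scaling cancels within a library, each gene was also expressed as a percent of Col4a1 in the same library, a measure chosen after the values were seen. Col4a2 stayed at 35.1% to 46.6% of Col4a1 in MI and 27.3% to 36.9% in Normal. Lamc1 was at 74.8%, 110.2% and 115% of Col4a1 in MI and at 33.8%, 35.6% and 32.6% in Normal. Its 3 Normal values were close to each other, although that of Normal Ms1608 rested on about 38 fragments of Lamc1 and 101 of Col4a1. Nid1 was at 102%, 97.6% and 148% in MI against 25.2%, 46.6% and 57.0% in Normal. Lamb1 was at 140.2%, 97.5% and 192% against 77.1%, 77.0% and 48.2%. For these 3 of the 9 genes all MI values lay above all Normal values, beside 6.13% of the tested genes measured in this way, which hold neither Nid2 nor Hspg2. That base depends on Normal Ms1608, where Col4a1 was at 0.429 FPKM. A gene less low there than Col4a1 gets a raised Normal percent, which all its MI values must exceed to count as higher. Nid1 did so, with 57.0% in Normal Ms1608, but the higher the percent there, the harder this is to reach. Without that library the base was 50.6%, so the 3 of 9 beside 6.13% cannot be read as a trait of these genes. The log2 ratio to Col4a1 was higher in MI by 1.53 (SE 0.20) for Lamc1, 1.49 (SE 0.40) for Nid1 and 1.07 (SE 0.36) for Lamb1. Each had an exact two-sided permutation p of 0.1, the smallest that 3 against 3 can give, and 0.3 adjusted over the 9 genes.

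**Figure D4:**
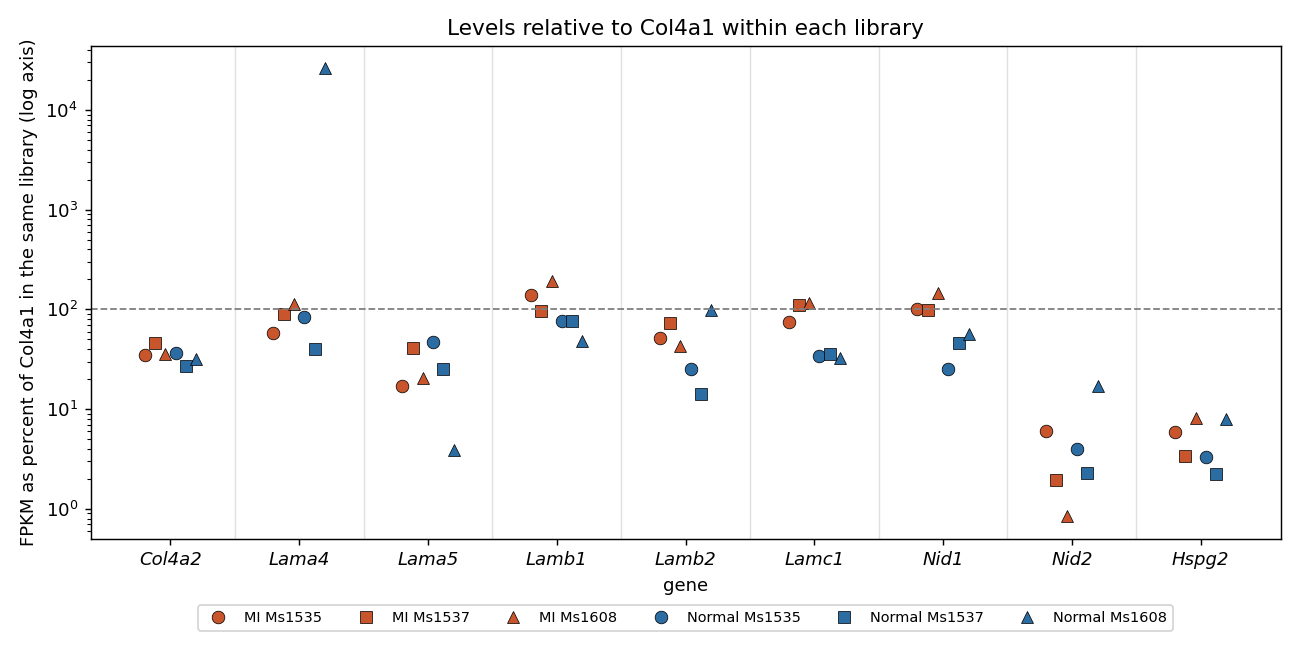
FPKM of each other basement membrane gene as a percent of Col4a1 in the same library (log axis), 1 point per library, with a dashed line at 100%. Lamc1 lies at 74.8% to 115% in MI and at 32.6% to 35.6% in Normal, and Lama4 in Normal Ms1608 lies far above all other points.

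Without Normal Ms1608, 5 of the 9 genes, now also Lamb2 and Hspg2, of which Hspg2 had not passed the filter, lay higher relative to Col4a1 in every MI library than in both Normal libraries. This stood beside 50.6% of all tested genes, a base that holds neither Hspg2 nor Nid2. Lamb2 was at 51.8%, 73.4% and 42.7% of Col4a1 in MI, at 25.1% and 14.1% in Normal Ms1535 and Ms1537, and at 98.8% in Normal Ms1608. Lama5 was at 17.2%, 40.8% and 20.5% in MI and at 47.1%, 25.2% and 3.86% in Normal, with overlap. The order of the 10 genes in a library followed from these values. Col4a1 was first in Normal Ms1535 and Ms1537, Lamb1 in MI Ms1535 and Ms1608, Lamc1 in MI Ms1537, and Lama4 in Normal Ms1608. Nid2 and Hspg2 held the last pair of places in every library except Normal Ms1608, where Lama5 was last.

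Likeness over the 6 libraries was measured by Pearson's r with the mean log2(FPKM + 1) of the 10 genes. The most similar named genes outside the list were D19Bwg1357e, Zfp764, Lyrm4, Clstn1 and Ssna1, with r from 0.993 to 0.999. All 5 were highest in MI Ms1537 and lowest in Normal Ms1608. With 6 points that share 1 low library, such values describe these libraries only.

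Other genes of the basement membrane were taken from lists by role. Of 10 other collagen IV and laminin chains, 3 were tested and 0 passed the limma threshold over all genes, with 1 higher at an unadjusted p under 0.05, beside 16.1% of all tested genes, and a median difference of 1.52 beside 0.78. Col4a5, a chain of a second kind of collagen IV network, was measured at 18.2, 8.36 and 1.24 FPKM after infarction and 0.877, 1.14 and 0.0719 FPKM without it (difference 2.18, SE 0.80, adjusted p = 0.259). The groups did not overlap. Lama2, the alpha chain of muscle laminin, stood at 4.49, 13.3 and 7.10 FPKM against 3.50, 4.19 and 0.147 FPKM (difference 1.52, SE 0.79, adjusted p = 0.344), also without overlap. Col4a4 stood at 0.631, 6.62 and 2.17 FPKM against 0.661, 1.05 and 0.128 FPKM (1.12, SE 0.59, adjusted p = 0.351).

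Of 12 associated matrix genes 11 were tested, 0 passed and 4 were higher at an unadjusted p under 0.05, beside 16.1% of all tested genes, with 11 differences above 0, beside 87.2%, and a median of 1.73. Fbln1, a fibulin that binds nidogen and fibronectin, was measured at 26.7, 64.1 and 7.69 FPKM after infarction, against 3.62, 5.46 and 0.196 FPKM without it (difference 2.93, SE 0.95, adjusted p = 0.247). Fbln2, another fibulin, stood at 27.3, 27.4 and 8.65 FPKM against 6.30, 5.81 and 0.109 FPKM (2.38, SE 0.90, adjusted p = 0.267). Ntn4, a netrin that binds laminin gamma chains, stood at 2.18, 11.0 and 3.99 FPKM against 0.836, 1.71 and 0.0578 FPKM (1.73, SE 0.66, adjusted p = 0.267). For all 3 of these genes, the MI libraries lay above the Normal ones.

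Of 10 laminin and matrix receptors 5 were tested and 0 passed with all libraries, with a median difference of 0.31. Itgb1, the shared beta subunit of laminin-binding integrins, differed by 0.22 (SE 0.71, limma adjusted p = 0.896), and Itga6, an alpha subunit for laminin, by 0.20 (SE 0.81, adjusted p = 0.915). Neither was among the genes the naming rule picked, and both were chosen after their values were seen as the most abundant tested receptors. Itga1, a collagen IV receptor subunit, differed by 0.31 (SE 0.79, adjusted p = 0.863). Dag1, dystroglycan, which binds laminin alpha chains, stood at 7.80, 11.1 and 2.25 FPKM after infarction, against 3.73, 1.40 and 1.45 FPKM (1.21, SE 0.72, adjusted p = 0.399). Sdc4, a syndecan with heparan sulphate chains, was measured at 16.6, 12.8 and 5.39 FPKM against 0.515, 0.690 and 2.07 FPKM (2.54, SE 0.69, adjusted p = 0.245). Without Normal Ms1608 Sdc4 rose by 2.86 (SE 0.57, limma adjusted p = 0.0355), the 1 of 5 receptors called there, beside 4.51% of all tested genes.

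**Figure D5:**
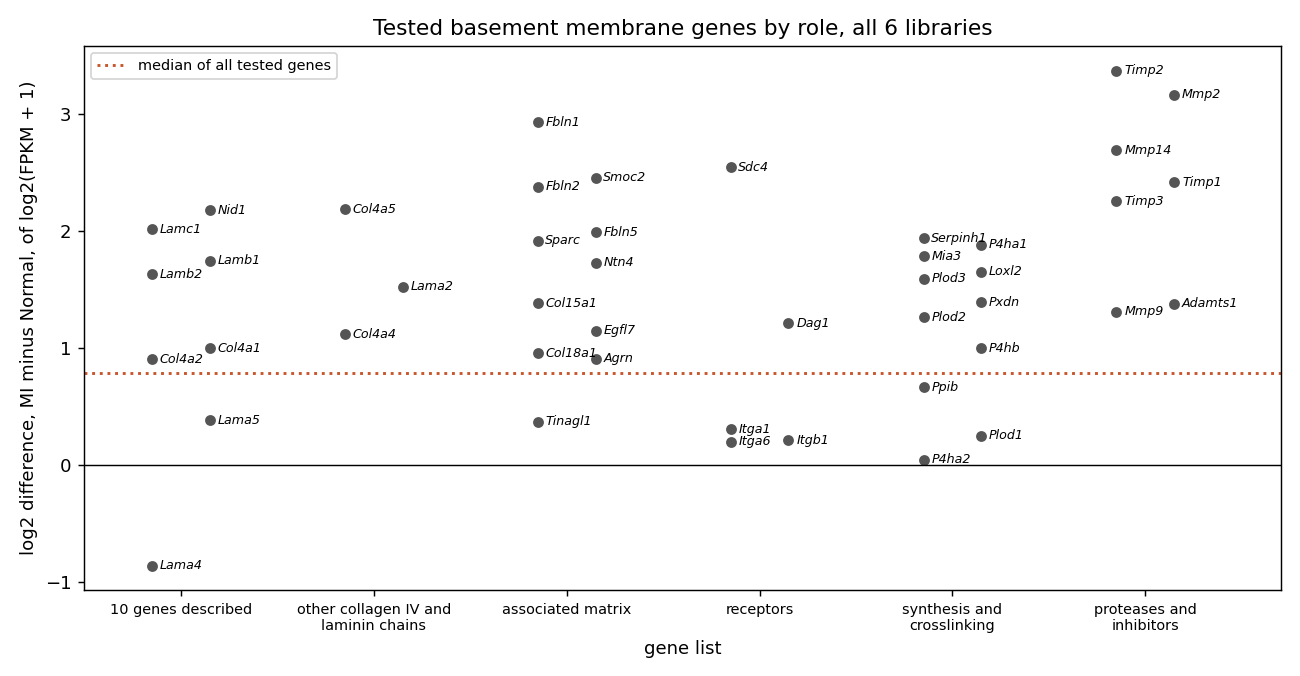
Log2 difference of log2(FPKM + 1), MI minus Normal, from all 6 libraries, with 1 named point per tested gene in 6 lists, and a dotted line at the median of all tested genes (0.78). The proteases and inhibitors have a median of 2.41, the receptors 0.31, and Lama4 is the 1 point below 0.

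Among 12 genes of collagen synthesis and crosslinking, 11 were tested and 0 passed, with 11 differences above 0 (beside 87.2% of all tested genes), 3 higher at an unadjusted p under 0.05 (beside 16.1%) and a median of 1.39. P4ha1, a subunit of prolyl hydroxylase, stood at 6.40, 14.3 and 3.85 FPKM after infarction, against 1.74, 1.44 and 0.644 FPKM (1.88, SE 0.67, adjusted p = 0.252). Loxl2, an oxidase that crosslinks collagen IV, stood at 6.05, 6.17 and 1.11 FPKM against 0.717, 0.858 and 0.0776 FPKM (1.65, SE 0.60, adjusted p = 0.256). Mia3, needed for export of large collagens from the endoplasmic reticulum, stood at 49.0, 66.6 and 30.4 FPKM against 14.4, 9.14 and 15.6 FPKM (1.79, SE 0.66, adjusted p = 0.259). For all 3 the groups did not overlap.

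All 7 proteases and inhibitors were tested and 0 passed with all libraries, with 7 differences above 0 (87.2% of all tested genes), 4 higher at an unadjusted p under 0.05 (16.1%) and a median of 2.41. Mmp2, a gelatinase that also cleaves collagen IV, was measured at 74.2, 77.5 and 18.0 FPKM after infarction, against 12.7, 7.35 and 0.363 FPKM without it (3.16, SE 0.99, adjusted p = 0.247). Timp2, an inhibitor and cofactor in Mmp2 activation, stood at 93.6, 139.8 and 30.0 FPKM against 13.3, 11.7 and 1.07 FPKM (3.37, SE 0.93, adjusted p = 0.245). Both were without overlap, whereas Mmp14, a membrane protease, overlapped at 101, 19.3 and 7.19 FPKM against 4.76, 7.77 and 0.254 FPKM (2.69, SE 1.07, adjusted p = 0.276). Mmp9, the other gelatinase, was named after its values were seen because it rose without Normal Ms1608 (3.05, SE 0.55, limma adjusted p = 0.0285), 1 of 7 in its list beside 4.51% of all tested genes. It stood at 22.4, 30.9 and 59.9 FPKM after infarction and 4.48, 2.41 and 158 FPKM without it, and Normal Ms1608 was its highest library, as for Lama4. All 8 leukocyte markers also passed the threshold without Normal Ms1608, and their part in the Mmp9 and Sdc4 values was not tested.

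Across these lists, groups without overlap and higher in MI were found for 2 of 3 other chains, 4 of 11 associated genes, 1 of 5 receptors, 3 of 11 synthesis genes and 2 of 7 proteases and inhibitors, beside 25.0% of all tested genes. Without Normal Ms1608 the list medians were 0.88, 0.82, 0.55, 0.99 and 2.17 in the same order, beside 0.83 for all tested genes. The protease and inhibitor list had the largest median of these lists in both comparisons, a difference from the other lists that was not tested.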

How the data were processed

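The deposited file held FPKM values for each gene in 6 libraries, 1 column per library, which the authors made with STAR 2.4.2a and Cufflinks 2.2.1 on GRCm38, per the submitters' processing notes. The annotation release, strand setting and treatment of multi-mapping reads are not given in the sources used here. Sorted cells gave RNA that was amplified by T7 transcription before library preparation, per the labels' protocols, and coverage along these long transcripts, on which FPKM rests, was not analysed here. Depth was implied from genes with 1 transcript, whose low FPKM times length (less 180 bases) fell within 0.1 of whole fragments for 93.7% to 94.6% of values. The step was fitted to the same values, so this is no independent check, and 3 fragments on a gene of 2 kb were 0.0347 to 0.0487 FPKM (counting error only). The labels state about 10 M reads, which was not reconciled.

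Genes that reached 1 FPKM in 3 or more libraries were compared on log2(FPKM + 1) by limma 3.58.1 in R 4.3.3, with its trend option, all 6 libraries, group as the only term and Benjamini-Hochberg adjustment over 10168 genes at 0.05. This scale understates changes of genes with low values. Ratios within a library were compared by exact permutation tests (scipy 1.17.1). The limma step was also run on simulated data. The settings and result of that run are not given here. It is therefore not evidence of how the fit performs at the spread of these libraries. Positions came from GENCODE M21 and promoter sequences from RefSeq. The members and lists were chosen with earlier results of these data known. Text names all 10 members, per list the genes past the threshold filled to 3 by lowest unadjusted p, markers, and the 5 genes most like the mean of the members, except where stated. Sample numbers shared by the groups were not used as pairs. Alternatives covered pseudocounts of 0.1 and 5, filters, scaling, a block on sample number and leaving out libraries.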

Additional observations from a re-analysis of the deposited data

How the results depend on the processing

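None of the 8 tested basement membrane genes passed the limma threshold under any of the 15 alternatives, and their lowest adjusted p was 0.0767, for Nid1 without both Ms1608 libraries. Genes called over all tested numbered 1 with all 6 libraries, 1 to 459 when 1 library was left out (459 without Normal Ms1608) and 1469 without both Ms1608 libraries. The median difference of the 8 genes was 1.32, from 0.37 to 1.99 when 1 library was left out, and 0.11 after quantile normalization. After median-ratio scaling, 0 of the 8 had an unadjusted limma p under 0.05, beside 328 higher and 160 lower of all 10168 tested genes. Groups without overlap were also 0 of 8, beside 688 higher and 790 lower. After upper-quartile scaling both counts were again 0 of 8. The base was then 467 higher and 128 lower by p, and 931 higher and 525 lower by overlap. Nid1, Lamc1, Lamb1 and Lamb2 kept a difference above 0 under all 15 alternatives, which reuse the same libraries. Of all tested genes, 47.5% to 89.3% lay above 0 in single alternatives, and how many did so in all was not counted. Without Normal Ms1608, Lamb1 at 0.52 lay below the median tested gene at 0.83. Of 120 values for the 8 genes, 11 changed sign. Quantile normalization turned Col4a1 to -0.21, Col4a2 to -0.38 and Lama5 to -0.67, and Lama5 was -0.37 after median-ratio and -0.34 after upper-quartile scaling. When 1 library was left out, Col4a1 ran from -0.26 to 1.78, Lama4 from -1.78 to 0.23 and Lama5 from -0.58 to 1.20. Without both Ms1608 libraries, Lama4 was 0.51 and Lama5 -0.081.

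The log2 ratio of Col4a1 to Col4a2 was -0.13 with a pseudocount of 0.1, -0.30 without both Ms1608 libraries and -0.29 to 0.37 when 1 library was left out. Lama4 to Lama5 was 0.59 without both and -2.32 to 0.81 with 1 left out, and Lamb1 to Lamb2 was -0.88 without both and -0.55 to 0.58 with 1 left out. Nid1 to Nid2 stayed between 1.44 and 2.62 with 1 left out. Because Nid2 was under 1 FPKM in every library, this ratio mostly follows Nid1, whose own difference ran from 1.32 to 2.66. Relative to Col4a1, Lama4 was 0.33, Lama5 -0.38 and Nid2 0.17 without both Ms1608 libraries, and with 1 left out Lama4 ran from -4.14 to 0.54 and Lama5 from -0.50 to 1.30. For these sign changes the cause was not tested.

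Deviations of samples with the same number correlated across genes at -0.05, 0.10 and 0.09, and those of samples with unlike numbers at -0.11 to 0.10. With few libraries per group and Normal Ms1608 standing apart, this check cannot settle whether samples were paired. The labels do not say what a shared number means, so the numbers were not taken as pairs. With a replicate block 1 gene was called over all tested, 0 of the basement membrane genes were called, their median was 1.32, and the 4 ratios kept their values (exact sign-flip permutation p from 0.25 to 1.0, where 0.25 is the smallest possible). At an unadjusted limma p under 0.05 the block gave 2 of the 8 genes higher, beside 1818 of all 10168 tested genes. Without the block it was 1 of the 8, beside 1635. Depth limits all genes but Lama4 in Normal Ms1608, from about 7 fragments for Lama5, 13 for Nid2, 17 for Hspg2 and 31 for Col4a2 to 101 for Col4a1.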
